A study of Mus musculus with 15 samples.

Results

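Forebrain RNA from wild-type (WT) mice treated with the regimen labelled PLX 1x (PLX1X) was compared with forebrain RNA from untreated (NT) wild-type mice, over every expressed gene. The comparison took the 3 PLX1X libraries and the 3 NT libraries, 6 of the 15 libraries of a bulk RNA-seq study of brain macrophages, by their treatment labels, and each gene identifier entered once. Of 55487 gene identifiers, 21780 had enough reads to be tested. The labels give the treatment only by the name PLX 1x, and the sources used here name no compound, dose, duration or day of tissue collection and no age or sex. The other 9 libraries, also wild type, were 3 labelled PLX 3x (PLX3X_CD0 in the library names), 3 titled PLX alone (PLX3X_CD30 in the library names) and 3 labelled IR-BMT (IR_BMT here). They shared the estimate of spread, and were compared among themselves in 1 separate comparison that held no PLX1X or NT library. The labels call the libraries replicates without saying that each came from its own mouse, so the spread behind each p-value is that of libraries and may be technical in part.

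Microglia, the macrophages of the brain parenchyma, live on signals through the CSF1 receptor, a tyrosine kinase encoded by Csf1r and bound by the ligands CSF1 and IL-34. Inhibitors of this kinase remove most microglia from the mouse brain within days, and macrophages of the brain borders depend on the same receptor to differing degrees. Microglial genes make up a small part of forebrain RNA, which comes mainly from neurons, astrocytes and oligodendrocytes. In bulk RNA, fewer cells of a type and less RNA per cell cannot be told apart.

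Library totals were 53981576, 44659499 and 41397164 counts in PLX1X and 19249641, 38994843 and 52308965 in NT. Levels are given as CPM, the counts of a gene scaled to the size of its library, after normalisation for library composition, and always for replicates 1, 2 and 3 in that order. NT replicate 1 was the shallowest and stood apart. Processed pseudogenes held 0.581, 0.593 and 0.535% of the counts in PLX1X, and 0.967, 0.589 and 0.547% in NT. Prkcd, a kinase gene abundant in thalamic neurons, was measured at 33.6, 15.4 and 7.88 CPM in PLX1X libraries, against 86.1, 21.8 and 24.0 CPM in NT libraries. The glycolytic gene Gapdh was at 1459, 1335 and 1473 CPM in PLX1X libraries, against 656, 1270.3 and 1406 CPM in NT libraries. Prkcd was also uneven within PLX1X, and the part of an uneven thalamic signal in the results was not tested. Counts of calls without NT replicate 1 are given below where they moved by over 1.5 times or a direction turned.

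A gene was called where the Benjamini-Hochberg adjusted p of edgeR's quasi-likelihood test, fitted to all 15 libraries, was under 0.05. By this rule 18.1% of the tested genes were called, 9.97% (2171 genes) higher and 8.12% (1768 genes) lower in PLX1X. Changes of at least 2-fold were mostly falls. At least 2-fold changes were called for 641 genes lower (2.94%) and for 27 genes higher (0.124%). The median log2 fold change was -0.65 among the genes called lower, 0.29 among those called higher and -0.04 over all tested genes. Of the 2171 rises, 2070 were under 1.5-fold, and of the 1768 falls 818. The 3 PLX1X libraries all lay above the 3 NT libraries for 15.9% of tested genes and all below them for 16.1%, called or not. With only the 6 libraries of the comparison in the fit, the calls were 1192 higher and 951 lower. Leaving out PLX1X replicate 1 or 3 left 1177 and 1109 lower calls, and leaving out NT replicate 1 or 2 gave 41 and 46 rises of at least 2-fold.

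**Figure D1:**
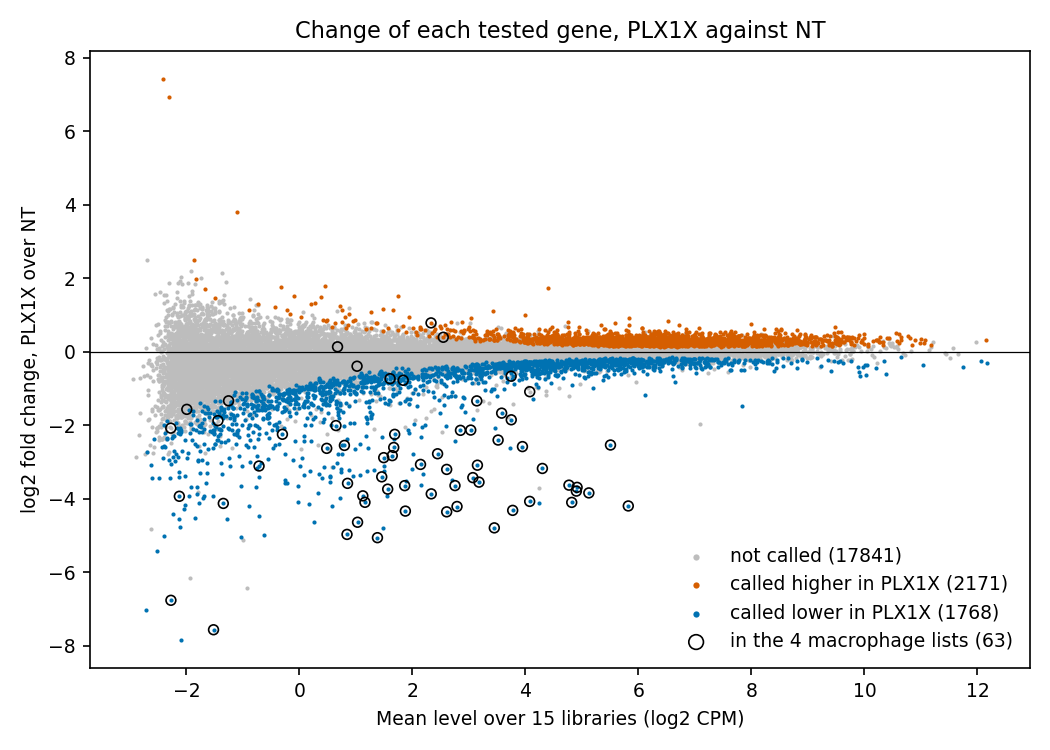
Log2 fold change of PLX1X over NT (vertical axis) against the mean level of each gene over all 15 libraries in log2 CPM (horizontal axis), 1 point per tested gene, coloured by call. The 63 tested members of the 4 macrophage lists are circled, most of them far below 0, while the called rises form a narrow band just above 0 on the right. The place of a gene with no count in PLX1X or in NT depends on the fit's prior count.

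Higher and lower calls fell on different kinds of transcript. Of the 2171 genes called higher, 2142 were protein coding (98.7%), against 1241 of the 1768 genes called lower (70.2%). Among protein-coding genes the split followed the level: of 726 genes with a mean log2 CPM over 8, 315 were higher and 47 lower, whereas of 1878 genes under 0, 7 were higher and 126 lower. The class that the annotation marks TEC (loci still to be checked by experiment) had the largest share of lower calls among the classes with at least 30 tested genes, with 248 of 1058 tested members lower and 1 higher, at a median log2 fold change of -0.80. Without NT replicate 1 the TEC calls were 209 lower and 2 higher. Processed pseudogenes gave 79 lower and 6 higher calls, but 29 lower and 40 higher without NT replicate 1, so that their direction turned on that library.

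**Figure D2:**
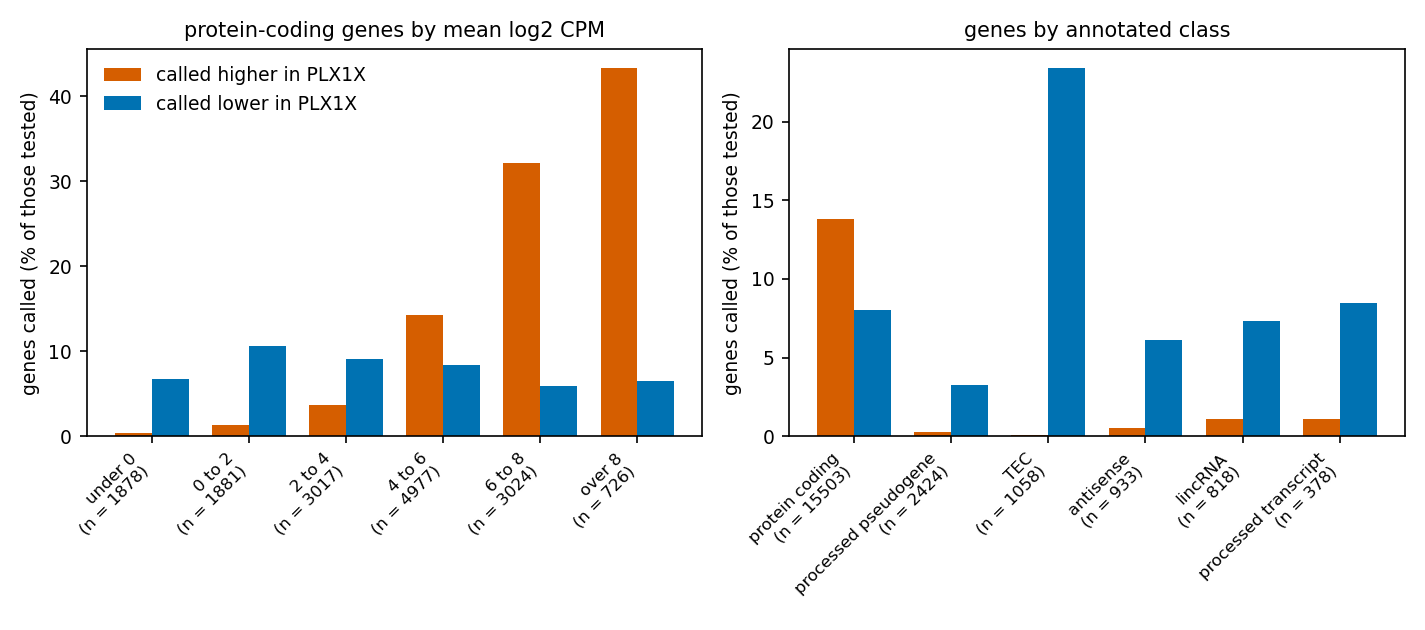
Percentage of tested genes called higher (orange) and lower (blue) in PLX1X, for protein-coding genes in bins of mean log2 CPM (left) and for the annotated classes with most tested genes (right), with the number tested under each bin. Rises outnumber falls from a log2 CPM of 4 upward, and falls outnumber rises in every other class shown, for processed pseudogenes not so without NT replicate 1. Bins at the low end hold genes with few counts, in which only large changes can be called.

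As shares of all counts, TEC genes held 0.0863, 0.0980 and 0.0755% in PLX1X and 0.162, 0.151 and 0.139% in NT, and long intergenic non-coding RNAs 0.460, 0.478 and 0.426% in PLX1X and 0.605, 0.565 and 0.510% in NT. Neither pair of groups overlapped (exact two-sided permutation test over 3 against 3 libraries, p = 0.1 each, the smallest possible). Protein-coding genes held 98.1, 98.0 and 98.2% in PLX1X and 97.0, 97.7 and 97.8% in NT, again without overlap and with the same exact p = 0.1. The 100 most abundant genes together took 15.4, 15.1 and 15.5% in PLX1X and 14.8, 15.5 and 15.5% in NT, overlapping groups.

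Macrophage genes were among those with the largest falls. Of the 641 genes called at least 2-fold lower, 51 were in the 4 macrophage lists, and 306 were protein coding. The receptor itself, Csf1r (chromosome 18, 61100598 to 61132149, mm10), was at 8.91, 13.6 and 4.53 CPM in PLX1X libraries, against 146, 170.3 and 179.6 CPM in NT libraries, 18.4-fold lower (log2 fold change -4.19 ± 0.39 (SE), adjusted p = 6.55e-05). Its lowest NT value exceeded the highest PLX1X value many times over. All 30 tested members of a list of genes shared by microglia and other macrophages were called lower, at a median log2 fold change of -3.48, and so were 11 of 13 genes restricted to microglia, at a median of -3.17. The counts were again 11 and 30 with the 6 libraries alone and without NT replicate 1. Summed over its 30 members, the shared list stood at 75.8, 111 and 49.5 CPM in PLX1X and 724, 871 and 890.0 CPM in NT, so that 9.51% of the NT mean was left.

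Among surface genes of resting microglia, P2ry12, the ADP receptor that steers microglial processes, was at 1.74, 2.84 and 1.48 CPM in PLX1X libraries, against 40.9, 41.9 and 37.7 CPM in NT libraries (log2 fold change -4.31 ± 0.23 (SE), adjusted p = 3.1e-08). Tmem119, a transmembrane protein used to mark microglia, was at 4.89, 6.72 and 3.74 CPM in PLX1X libraries, against 44.1, 47.9 and 46.5 CPM in NT libraries (log2 fold change -3.17 ± 0.25 (SE), adjusted p = 5.2e-06). Both genes kept a low level in every PLX1X library, with no overlap between groups. Cx3cr1, the fractalkine receptor, was 17.1-fold lower, and the sialic acid-binding lectin gene Siglech 18.6-fold lower (adjusted p = 3.26e-05 and 3.1e-08). Fcrls and Gpr34, an Fc receptor-like gene and a lysophospholipid receptor gene of microglia, stood at 3.63% and 4.93% of the NT mean.

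The myeloid transcription factor genes fell as well. Spi1, which encodes PU.1, was at 0.463, 0.842 and 0.246 CPM in PLX1X libraries, against 6.29, 8.17 and 6.40 CPM in NT libraries (log2 fold change -3.73 ± 0.42 (SE), adjusted p = 3.09e-05). Irf8 was at 1.35, 2.66 and 1.48 CPM in PLX1X libraries, against 13.3, 11.6 and 12.6 CPM in NT libraries (log2 fold change -2.77 ± 0.20 (SE), adjusted p = 4.08e-08). The ITAM adaptor gene Tyrobp and its partner receptor Trem2 fell 12.6-fold and 10.8-fold (adjusted p = 1.35e-05 and 2.03e-10), and the 3 subunit genes of C1q, which starts the classical complement cascade, fell 16.9-fold (C1qa), 14.3-fold (C1qb) and 12.4-fold (C1qc). Aif1, the gene of the IBA1 antigen, was at 0.944, 1.66 and 0.271 CPM in PLX1X libraries, against 6.91, 7.45 and 6.25 CPM in NT libraries. Cd68, a lysosomal membrane glycoprotein gene of phagocytes, fell least in the shared list, at 5.28, 6.52 and 4.90 CPM in PLX1X libraries, against 12.1, 15.4 and 14.5 CPM in NT libraries (log2 fold change -1.33 ± 0.15 (SE), adjusted p = 8.56e-06). Among called genes with a mean log2 CPM of at least 1 and no overlap, the largest falls outside these lists were those of Cd33, a sialic acid-binding inhibitory receptor gene, Selplg, the selectin ligand gene PSGL-1 (17.4-fold lower), and Adgre1, the gene of the F4/80 antigen (15.2-fold lower).

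The search for 8 bases of the PU.1 core motif, GAGGAAGT on either strand, in RefSeq promoter windows (250 bases before to 50 after each gene's start, GRCm38.p6) found it for 7 of 23 members of the shared macrophage list that have a window (30.4%), and for 378 of 13408 tested genes (2.82%). The motif was found for 0 of 8 genes restricted to microglia, 2 of 6 border macrophage genes and 1 of 10 marrow macrophage genes. Among all genes with a window it was found for 4.63% of those called lower and 3.04% of those called higher. A match is a string of letters and does not show binding. The 250 bases before the start are given for Inpp5d, the gene of the phosphatase SHIP1, Cd37, a tetraspanin gene of leukocytes, and Vav1, a guanine nucleotide exchange factor gene of blood cells, since all 3 fell and carry the motif close to the start. They are written 5′ to 3′ on the gene's strand with the motif in capitals; Inpp5d lies at chr1:87620062-87620311 (+), Cd37 at chr7:45238840-45239089 (-) and Vav1 at chr17:57278850-57279099 (+).
Inpp5d: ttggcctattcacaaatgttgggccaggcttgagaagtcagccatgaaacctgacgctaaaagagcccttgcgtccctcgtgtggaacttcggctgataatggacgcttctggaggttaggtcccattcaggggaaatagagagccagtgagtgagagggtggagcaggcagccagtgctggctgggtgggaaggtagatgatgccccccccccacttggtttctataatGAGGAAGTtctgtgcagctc
Cd37: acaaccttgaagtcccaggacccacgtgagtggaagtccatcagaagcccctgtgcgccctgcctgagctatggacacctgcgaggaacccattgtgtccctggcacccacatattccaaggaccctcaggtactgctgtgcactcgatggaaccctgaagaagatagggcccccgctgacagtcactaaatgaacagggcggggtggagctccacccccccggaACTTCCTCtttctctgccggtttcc
Vav1: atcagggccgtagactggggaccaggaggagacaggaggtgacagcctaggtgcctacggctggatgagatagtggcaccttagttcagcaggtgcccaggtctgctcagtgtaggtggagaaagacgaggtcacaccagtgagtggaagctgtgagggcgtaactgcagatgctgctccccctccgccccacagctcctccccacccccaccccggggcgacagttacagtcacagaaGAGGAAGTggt
The motif begins 20 bases before the start in Inpp5d, 25 in Cd37 and 11 in Vav1. Inpp5d was at 5.85, 7.69 and 5.59 CPM in PLX1X libraries, against 18.4, 21.3 and 20.9 CPM in NT libraries (log2 fold change -1.67 ± 0.12 (SE), adjusted p = 4.12e-08). Cd37 was at 0.352, 0.443 and 0.246 CPM in PLX1X libraries, against 4.43, 4.04 and 4.15 CPM in NT libraries. Vav1 was at 0.667, 0.931 and 0.197 CPM in PLX1X libraries, against 4.48, 7.21 and 7.45 CPM in NT libraries. The groups did not overlap for any of the 3.

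Genes of macrophages at the brain borders fell with those of microglia: 7 of 10 tested members were called lower and none higher. Mrc1, the mannose receptor gene, was at 0.0185, 0.200 and 0.123 CPM in PLX1X libraries, against 2.76, 5.10 and 2.56 CPM in NT libraries (log2 fold change -4.97 ± 0.46 (SE), adjusted p = 1.12e-06). F13a1, the gene of coagulation factor XIII A, was at 0.111, 0.177 and 0.148 CPM in PLX1X libraries, against 3.96, 6.98 and 3.63 CPM in NT libraries (log2 fold change -5.06 ± 0.33 (SE), adjusted p = 2.44e-08). Clec4n, the gene of the lectin dectin-2, had no count in any PLX1X library and averaged 0.324 ± 0.0492 CPM in NT (SD, n = 3), at least 4.97-fold lower against a floor of 3 counts per library (edgeR adjusted p = 0.000797). With Clec4n at that bound the list's median log2 fold change was -2.28, and -2.72 as fitted. Cd163, a haemoglobin scavenger receptor gene, fell least (log2 fold change -0.73 ± 0.24). Its call was lost with the 6 libraries alone and without NT replicate 2 or any single PLX1X library (adjusted p = 0.203 without NT replicate 2 and 0.156, 0.0561 and 0.102 without PLX1X replicates 1, 2 and 3).

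Genes typical of macrophages that come from bone marrow did not move as 1 group, with 5 of 10 tested members lower and 2 higher, Itga4 and Emilin2. Leaving out NT replicate 2 or 3, or any single PLX1X library, left 1 gene higher. Ms4a7, a membrane-spanning gene of border and marrow-derived macrophages, had no count in any PLX1X library and 0.763, 0.495 and 0.461 CPM in the NT libraries, at least 8.77-fold lower (edgeR adjusted p = 0.000343). Lyz2, the lysozyme gene of myeloid cells, was at 2.93, 2.48 and 2.61 CPM in PLX1X libraries, against 10.0, 18.1 and 14.0 CPM in NT libraries (log2 fold change -2.40 ± 0.37 (SE), adjusted p = 0.0011). Itga4, an integrin subunit gene, went the other way, at 5.17, 5.83 and 4.43 CPM in PLX1X libraries, against 2.43, 3.44 and 2.97 CPM in NT libraries (log2 fold change 0.79 ± 0.15 (SE), adjusted p = 0.00129). The cells it came from were not tested. The tested lymphocyte list had 1 of 7 members called lower, Cd79b, whose call was lost without NT replicate 2 or PLX1X replicate 1 or 2 (adjusted p = 0.0626, 0.0894 and 0.0607). The neutrophil list had no call among 4, with 0 higher and 0 lower at an unadjusted p under 0.05 in edgeR and 0 called by DESeq2.

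Of the receptor's ligands, Csf1 was at 26.7, 23.1 and 28.4 CPM in PLX1X libraries, against 23.5, 22.6 and 24.6 CPM in NT libraries (log2 fold change 0.14 ± 0.09 (SE), adjusted p = 0.317), with overlapping groups. Il34, the ligand gene expressed mainly by neurons, was called higher, at 68.6, 63.3 and 72.9 CPM in PLX1X libraries, against 43.1, 58.0 and 55.7 CPM in NT libraries (log2 fold change 0.38 ± 0.08 (SE), adjusted p = 0.00288). Kit, a receptor kinase gene close in structure to Csf1r, was higher as well (72.4, 75.6 and 77.3 CPM in PLX1X, 49.5, 61.4 and 58.1 CPM in NT, adjusted p = 0.000167). Flt3l, the ligand gene of FLT3, a further kinase of that family, was lower, at 1.20, 1.33 and 1.01 CPM in PLX1X libraries, against 2.57, 2.58 and 2.03 CPM in NT libraries (log2 fold change -1.01 ± 0.22 (SE), adjusted p = 0.0038). Of the transforming growth factor beta axis, which maintains microglial identity, Tgfb1 fell 4.96-fold, Tgfbr1 2.45-fold and Tgfbr2 1.65-fold (adjusted p = 1.49e-06, 4.12e-08 and 5.36e-05). Smad2 and Smad3, the genes of its signal transducers, were called higher with log2 fold changes of 0.27 and 0.31 (for Smad3 adjusted p = 0.008, and 0.0598 with the 6 libraries alone).

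Genes that macrophages share with many other cells moved in part. Of 21 lysosomal genes 8 were lower and 1 higher. Ctsc and Ctsh, cathepsin genes, fell 2.39-fold and 2.05-fold. Ctsd, the cathepsin D gene, stood at 158, 163 and 164 CPM in PLX1X libraries, against 219, 229 and 240.4 CPM in NT libraries (log2 fold change -0.50 ± 0.08 (SE), adjusted p = 0.00015). Psap, the prosaposin gene, was called higher (log2 fold change 0.23 ± 0.05), but not with the 6 libraries alone (adjusted p = 0.0646). Outside C1q, 5 of 12 complement genes were lower, led by the anaphylatoxin receptor genes C3ar1 (8.86-fold) and C5ar1 (7.49-fold). Of MHC class I genes 3 of 10 were lower (5 without NT replicate 1, 1 without PLX1X replicate 1 or 3). The light chain gene B2m was at 39.2, 45.1 and 37.7 CPM in PLX1X libraries, against 65.0, 69.9 and 51.1 CPM in NT libraries (log2 fold change -0.60 ± 0.10 (SE), adjusted p = 0.000365). Reads of the near-identical heavy chain genes may be shared between them, so their single values are uncertain. Of cytokine and chemokine genes 4 of 11 were lower and none higher, including Il1a (8.46-fold). Cst3, the cystatin C gene, lost 577 CPM of its mean, at 1147, 1033 and 1086 CPM in PLX1X libraries, against 1531, 1665 and 1801 CPM in NT libraries (log2 fold change -0.61 ± 0.09 (SE), adjusted p = 0.000149).

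Of interferon-stimulated genes, 8 of 30 were called lower and none higher, and the median log2 fold change was -0.64, against -0.04 over all genes. The number depended on the libraries: 2 were called with the 6 libraries alone, 13 without NT replicate 1, 3 without NT replicate 2, and 4, 4 and 3 without PLX1X replicates 1, 2 and 3. Trim30a and Parp14, genes of a ubiquitin ligase family and of an ADP-ribosyltransferase, kept their calls without any single library, at log2 fold changes of -1.65 ± 0.39 and -1.11 ± 0.24 (SE; adjusted p = 0.00571 and 0.00298). With the 6 libraries alone Trim30a had an adjusted p of 0.0505.

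**Figure D3:**
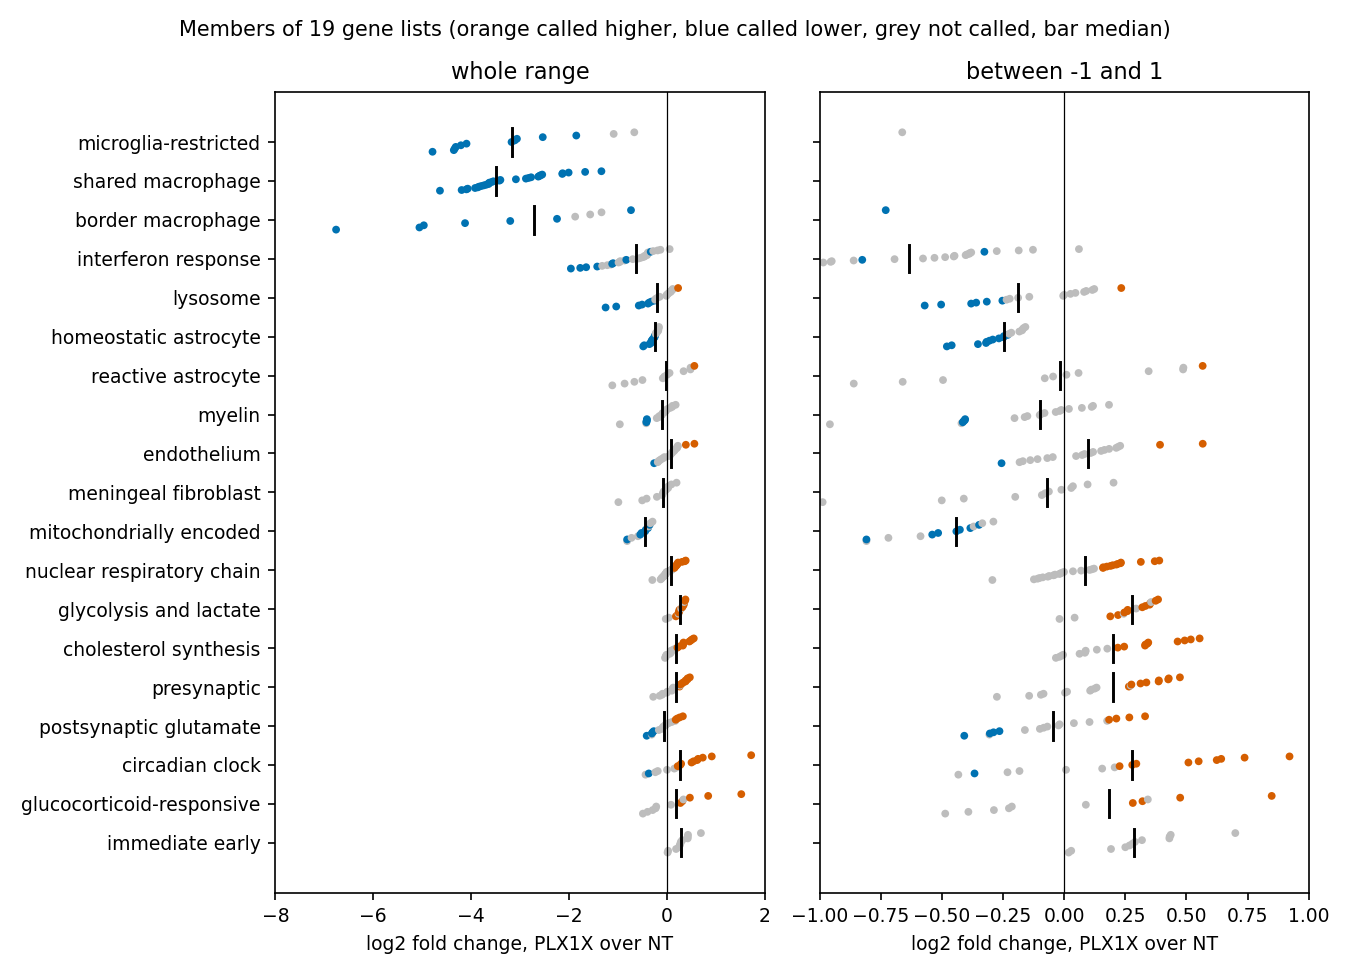
Log2 fold change of PLX1X over NT for each tested member of 19 gene lists, over the whole range (left) and between -1 and 1 (right). Orange points were called higher, blue lower and grey not called, and the black bar is the list's median. The 3 macrophage lists have their medians left of -2, and the clock, glycolysis, cholesterol synthesis and presynaptic lists have their medians right of 0. Clec4n, the leftmost border macrophage gene, had no count in PLX1X, so that its place depends on the fit's prior count.

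Whether the same genes also differed between other brains with less and more macrophage RNA was asked in the 9 libraries that are neither PLX1X nor NT. There the shared macrophage list summed to 55.3, 85.5 and 46.4 CPM in the PLX3X_CD0 libraries, 376, 370.2 and 386 in PLX3X_CD30 and 433, 400.1 and 380.0 in IR_BMT. The macrophage-poor PLX3X_CD0 group was tested against the mean of the other 2, and 8.48% of 20668 genes were lower and 8% higher. These groups differ in treatment label as well as in macrophage RNA, so that treatment and macrophage content cannot be told apart in this comparison. Of the 1710 genes lower in PLX1X and tested in both, 538 were lower there too (31.5% of these, 30.7% of the genes lower in that comparison) and 33 were higher. Of the 2169 genes higher in PLX1X, 636 were higher there (29.3% and 38.5%) and 86 lower. The share differed with the size and class of the fall. Among falls of any size, 484 of 1224 protein-coding genes (39.5%) and 14 of 232 TEC genes (6.03%) were lower in both. Of 289 protein-coding genes lower by at least 2-fold, 190 were lower in both (65.7%). Of 1058 tested TEC genes, 817 had a mean log2 CPM of 0 or less, where only large changes can be called. Without PLX3X_CD0 replicate 3 that comparison gave 1125 lower and 829 higher genes, and held 23.76% of the genes lower and 16.73% of the genes higher in PLX1X.

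**Figure D4:**
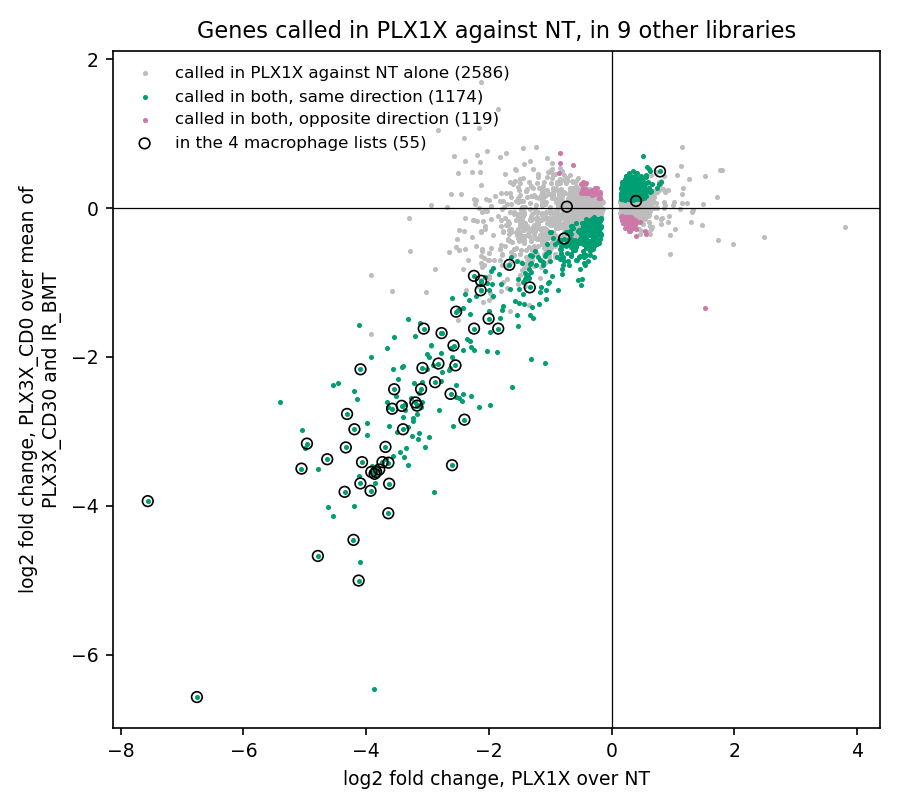
Log2 fold change of PLX1X over NT (horizontal axis) against that of PLX3X_CD0 over the mean of PLX3X_CD30 and IR_BMT (vertical axis), for genes called in PLX1X against NT and tested in both. Green points were called in both with the same sign, pink points in both with opposite signs, and circles mark the macrophage lists. Most circled macrophage genes lie along a rising band on the left, while the rises on the right lie near 0 on the vertical axis. Of 583 genes shown that were lower by at least 2-fold, 213 were called lower in the other comparison too. For 312 of them the unadjusted edgeR p there was at least 0.05.

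Some falls were not detected in those 9 libraries, where the unadjusted p was at least 0.05. Among called, non-overlapping genes with a mean log2 CPM of at least 1 these were led by Lyn, a Src-family kinase gene of myeloid cells. Lyn was at 2.98, 3.52 and 2.41 CPM in PLX1X libraries, against 9.72, 10.3 and 16.1 CPM in NT libraries. Its call was lost without PLX1X replicate 1 or 3, at an adjusted p of 0.0533 and 0.0644. Pomc, the hypothalamic pro-opiomelanocortin gene, was at 1.28, 1.33 and 0.837 CPM in PLX1X libraries, against 1.81, 4.56 and 4.99 CPM in NT libraries (log2 fold change -1.74 ± 0.41 (SE), adjusted p = 0.00787). Pomc comes from a small group of hypothalamic neurons, and of 8 tested hypothalamic genes 1 other was called. Sim1, a transcription factor gene of the paraventricular nucleus, had 0.389, 0.842 and 0.295 CPM in PLX1X libraries and no count in the NT libraries (at least 5.60-fold higher, edgeR adjusted p = 0.00569). The 2 genes moved in opposite directions. F11r, the junctional adhesion molecule gene, was at 4.83, 4.41 and 3.55 CPM in PLX1X libraries, against 10.6, 12.6 and 12.9 CPM in NT libraries (log2 fold change -1.50 ± 0.18 (SE), adjusted p = 1.57e-05). Pde3b, a phosphodiesterase gene, was at 5.26, 5.56 and 4.95 CPM in PLX1X libraries, against 13.4, 11.3 and 12.2 CPM in NT libraries (log2 fold change -1.22 ± 0.14 (SE), adjusted p = 1.27e-05). Neither gene's groups overlapped. Further genes of this kind were Sfrp4, a secreted Wnt antagonist gene (2.43-fold lower), and Uba7, an ISG15-activating enzyme gene (2.37-fold lower). Of the 15 largest falls of this kind, 6 were TEC genes, and Malat1, a nuclear long non-coding RNA, was another.

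Malat1 was at 159, 181 and 134 CPM in PLX1X libraries, against 819, 305 and 192 CPM in NT libraries. The groups did not overlap, yet NT replicate 1 alone held 62.3% of the summed NT level, and the call (log2 fold change -1.47 ± 0.41 (SE), adjusted p = 0.033) was lost with the 6 libraries alone (adjusted p = 0.226). Without NT replicate 1 the log2 fold change was -0.64, and without PLX1X replicates 1, 2 and 3 the adjusted p was 0.0926, 0.0696 and 0.115. Meg3, another long non-coding RNA kept largely in the nucleus, was at 851, 847 and 598 CPM in PLX1X libraries, against 1301, 1299.7 and 1045 CPM in NT libraries (log2 fold change -0.67 ± 0.11 (SE), adjusted p = 0.000957). It kept its call in all 15 settings. The library kit does not mark strand, so that reads of TEC, antisense and intronic genes cannot be told apart from unspliced or antisense RNA of the genes they overlap.

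Homeostatic astrocyte genes moved down together by small amounts. All 18 tested members had a negative log2 fold change, 11 were called lower, and the median was -0.25. Kcnj10, the gene of the potassium channel Kir4.1, was at 18.0, 17.0 and 17.7 CPM in PLX1X libraries, against 28.7, 20.2 and 24.8 CPM in NT libraries (log2 fold change -0.48 ± 0.11 (SE), adjusted p = 0.00413). Sox9, a transcription factor gene of astrocytes, was at 77.7, 79.0 and 79.8 CPM in PLX1X libraries, against 113, 94.0 and 118 CPM in NT libraries (log2 fold change -0.46 ± 0.08 (SE), adjusted p = 0.000594). For both genes the PLX1X libraries lay close together below every NT library. S100b and Ntsr2, a calcium-binding protein gene and a neurotensin receptor gene of astrocytes, fell by 0.32 and 0.35 on the log2 scale and kept their calls in all settings. Without NT replicate 1, 16 of the 18 were called. The count was 6 without PLX1X replicate 2 and 6 with the 6 libraries alone. In the separate comparison of 9 libraries, 11 of 18 were lower in the macrophage-poor group. Other lists differed there. Lower calls numbered 10 of 21 lysosomal, 0 of 29 interferon-stimulated and 1 of 13 mitochondrially encoded genes. Of 20 myelin genes 2 were lower and 7 higher, and of 30 nuclear respiratory chain genes 11 were lower and 3 higher. Of 16 glycolytic genes 2 were lower and 0 higher, and of 20 cholesterol synthesis genes 0 were lower and 6 higher.

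Reactive astrocyte genes gave 1 call among 12, Serpina3n, an acute-phase serine protease inhibitor gene, which was higher at 14.4, 14.2 and 13.6 CPM in PLX1X libraries, against 9.82, 8.52 and 10.2 CPM in NT libraries (log2 fold change 0.57 ± 0.10 (SE), adjusted p = 0.000425). Gfap, the intermediate filament gene, was at 336, 283 and 309 CPM in PLX1X libraries, against 166, 211 and 284 CPM in NT libraries and was not called (log2 fold change 0.49 ± 0.22, adjusted p = 0.161, but 1.86e-10 with no filter on low counts). Apoe, the apolipoprotein gene shared by astrocytes and microglia, was at 1870.3, 1748 and 1757 CPM in PLX1X libraries, against 2205, 2161 and 2536 CPM in NT libraries (log2 fold change -0.36 ± 0.08 (SE), adjusted p = 0.00478).

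Of 20 myelin genes 4 were lower and none higher. Mbp, the myelin basic protein gene, had the largest fall in mean level among all called genes with 1132 CPM, at 3382, 3307 and 3506 CPM in PLX1X libraries, against 4952, 4008 and 4631 CPM in NT libraries (log2 fold change -0.41 ± 0.07 (SE), adjusted p = 0.000315). Mobp, a second basic protein gene of myelin, and Gjb1, the connexin 32 gene, fell by the same proportion (log2 fold changes -0.41 ± 0.09 and -0.41 ± 0.08). Most of the list stayed uncalled, and its median was -0.10. Without NT replicate 1, 4 were lower and 2 higher, and the median was 0.02. Upstream in the lineage, the transcription factor gene Olig1 was at 122, 123 and 116 CPM in PLX1X libraries, against 188, 153 and 161 CPM in NT libraries (log2 fold change -0.47 ± 0.07 (SE), adjusted p = 0.000104). Olig1, Olig2 (log2 fold change -0.41 ± 0.10) and Sox10 (-0.38 ± 0.08) were called lower, 3 of 10 precursor genes. Sox10 missed the threshold with the 6 libraries alone (adjusted p = 0.0542). Bcas1, a gene of newly formed myelinating cells, was at 88.7, 97.8 and 103 CPM in PLX1X libraries, against 181, 135 and 136 CPM in NT libraries (log2 fold change -0.64 ± 0.09 (SE), adjusted p = 9.47e-05). It had the largest fall of 9 genes of newly formed oligodendrocytes, of which 4 were called lower and none higher. Their median log2 fold change was -0.07, and 3 were positive. With the 6 libraries alone 1 was called lower, and without NT replicate 1, 2 were.

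Transcripts of the mitochondrial genome and nuclear genes of the same respiratory complexes were called in opposite directions. Mitochondrially encoded genes held 0.483, 0.522 and 0.486% of the counts in PLX1X and 0.817, 0.709 and 0.656% in NT (exact two-sided permutation p = 0.1, the smallest possible). Of 13 such protein genes 7 were called lower and none higher. The cytochrome b gene mt-Cytb was at 1096, 1192 and 1159.6 CPM in PLX1X libraries, against 1531, 1576 and 1526 CPM in NT libraries (log2 fold change -0.43 ± 0.06 (SE), adjusted p = 0.000135). The complex I gene mt-Nd5 was at 301, 311 and 301 CPM in PLX1X libraries, against 439.8, 451 and 414 CPM in NT libraries (log2 fold change -0.52 ± 0.07 (SE), adjusted p = 6.55e-05). Without NT replicate 1, 5 were called, and without NT replicate 3, 12. Of 30 nuclear respiratory chain genes 12 were higher and none lower, Ndufs1 of complex I (223, 218 and 223 CPM in PLX1X, 172, 171 and 164 CPM in NT, adjusted p = 1.33e-05) and Uqcrc2 of complex III (199, 191 and 187 CPM in PLX1X, 147, 155 and 144 CPM in NT, adjusted p = 3.86e-05) in all settings. With the 6 libraries alone 3 of the 30 were called, and without PLX1X replicates 1 and 3 in turn 7 and 6. The nuclear list's median log2 fold change was 0.09, and 13 of the 30 were negative. Its mean log2 CPM was 7.51 in PLX1X and 7.43 in NT. Of protein-coding genes with a mean log2 CPM of 6 to 8, 32.2% were called higher, at a median of 0.11. The nuclear rises were thus near those of other genes of such levels.

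Glycolytic genes rose: 11 of 16 were called higher and none lower, at a median log2 fold change of 0.28, and 4 with the 6 libraries alone. Without NT replicate 1, 12 were called higher, at a median of 0.21. The list's mean log2 CPM was 8.99 in PLX1X and 8.72 in NT. Of protein-coding genes with a mean log2 CPM over 8, 43.4% were called higher, at a median of 0.16. Hk1, the hexokinase gene of brain, was at 749, 715 and 763 CPM in PLX1X libraries, against 492, 609.8 and 604 CPM in NT libraries (log2 fold change 0.38 ± 0.07 (SE), adjusted p = 0.000496). Pgk1, the phosphoglycerate kinase gene, was at 271, 266 and 284 CPM in PLX1X libraries, against 190.5, 233 and 219.8 CPM in NT libraries (log2 fold change 0.35 ± 0.06 (SE), adjusted p = 0.00055). NT replicate 1 was the lowest library for Hk1, as it was for Gapdh. Pkm, the pyruvate kinase gene, rose by 413 CPM and Aldoa, the aldolase A gene, by 439.7 CPM in the mean, among the 12 largest gains in level. Pkm was not called with the 6 libraries alone (adjusted p = 0.0719). Slc2a1, the glucose transporter gene of the blood-brain barrier, was at 101, 109 and 109 CPM in PLX1X libraries, against 83.4, 82.8 and 77.3 CPM in NT libraries (log2 fold change 0.39 ± 0.06 (SE), adjusted p = 0.000199). Slc7a5, an amino acid transporter gene of the same cells, was at 95.0, 96.8 and 101 CPM in PLX1X libraries, against 60.7, 65.1 and 71.3 CPM in NT libraries (log2 fold change 0.57 ± 0.07 (SE), adjusted p = 1.13e-05). They were the only 2 of 20 endothelial genes called higher, against 4 without NT replicate 2. Cldn5, the claudin 5 gene of endothelial tight junctions, was called lower, at 24.4, 27.5 and 26.4 CPM in PLX1X libraries, against 28.9, 31.7 and 32.7 CPM in NT libraries (log2 fold change -0.26 ± 0.07 (SE), adjusted p = 0.0137). That call was lost with the 6 libraries alone, under the length and GC offset, and without NT replicate 3 or PLX1X replicate 1 (adjusted p = 0.0772, 0.14, 0.0573 and 0.0882).

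Presynaptic genes were among the rises. Of 20 listed, 9 were higher and none lower, at a median log2 fold change of 0.20. The list's mean log2 CPM was 9.23 in PLX1X and 9.05 in NT. Of 726 protein-coding genes with a mean log2 CPM over 8, 315 were called higher (43.4%), at a median of 0.16. That share is close to the list's own. Nsf, Cltc and Doc2a, given below, are not in the list. Syt1, the calcium sensor gene synaptotagmin 1, was at 1811, 1825 and 1872 CPM in PLX1X libraries, against 1291, 1437 and 1367 CPM in NT libraries (log2 fold change 0.43 ± 0.06 (SE), adjusted p = 4.07e-05). Nsf, the ATPase gene that takes apart SNARE complexes, rose by 495 CPM in the mean, at 1668, 1592 and 1658 CPM in PLX1X libraries, against 1113, 1225 and 1096 CPM in NT libraries (log2 fold change 0.52 ± 0.05 (SE), adjusted p = 1.54e-06). Both genes were higher in every PLX1X library than in any NT library. Cltc, the clathrin heavy chain gene (849, 859 and 843 CPM in PLX1X, 575, 611 and 575 CPM in NT), and Doc2a, a calcium sensor gene of spontaneous release (26.8, 28.1 and 28.9 CPM in PLX1X, 16.7, 16.3 and 14.6 CPM in NT), rose with adjusted p = 7.15e-07 and 4.6e-06.

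Postsynaptic genes were called in both directions, with 4 of 18 higher and 4 lower (2 higher without PLX1X replicate 1). The list's mean log2 CPM was 7.59 in PLX1X and 7.62 in NT. Of protein-coding genes with a mean log2 CPM of 6 to 8, 32.2% were called higher and 5.92% lower. Shank1 and Shank3, scaffold genes of the postsynaptic density, were lower (log2 fold changes -0.41 and -0.30), and so was Dlg4, the PSD-95 gene (-0.26), while Nlgn1, the neuroligin 1 gene, was higher (0.33 ± 0.08, adjusted p = 0.00483). Protein-coding genes of high GC content were called lower more often, 365 lower and 200 higher in the fifth with most GC against 182 lower and 496 higher in the fifth with least. Its part in the Shank values was not tested beyond an offset for length and GC. Under that offset the calls of both were lost, at log2 fold changes of -0.27 for Shank1 (adjusted p = 0.0694) and -0.16 for Shank3 (adjusted p = 0.179), against 0.33 for Nlgn1. The sodium channel gene Scn2a rose by 0.51 on the log2 scale (adjusted p = 3.28e-05). No gene of 9 striatal and 8 thalamic genes was called in either direction (edgeR; 0 and 0 higher, 0 and 1 lower at an unadjusted p under 0.05, none by DESeq2), though the thalamic median was -0.43 (0.05 without NT replicate 1) and Prkcd was called lower with no filter on low counts.

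Genes of the circadian clock showed some of the largest rises. In this loop the activators CLOCK and BMAL1 bind E-box sequences and drive the period, cryptochrome and Rev-erb genes, whose products then repress them. Of 17 clock genes 10 were higher and 1 was lower, and 8 and 1 with the 6 libraries alone. Ciart, a clock repressor gene (chromosome 3, 95878503 to 95882251), was at 34.8, 43.9 and 40.1 CPM in PLX1X libraries, against 12.6, 12.4 and 11 CPM in NT libraries, 3.30-fold higher (log2 fold change 1.73 ± 0.15 (SE), adjusted p = 1.2e-06). Per2 was at 78.2, 80.7 and 101 CPM in PLX1X libraries, against 45.4, 45.1 and 46.5 CPM in NT libraries (log2 fold change 0.92 ± 0.13 (SE), adjusted p = 0.000293). Nr1d2, the Rev-erb beta gene, was at 143, 142 and 142 CPM in PLX1X libraries, against 80.3, 89.9 and 85.6 CPM in NT libraries (log2 fold change 0.74 ± 0.07 (SE), adjusted p = 5.75e-07). No PLX1X library overlapped an NT library for these 3 genes. Per1 and Nr1d1 rose 1.54-fold and 1.46-fold (adjusted p = 0.00972 and 4.24e-05). Arntl, which encodes BMAL1, was called lower, at 38.1, 38.5 and 49.5 CPM in PLX1X libraries, against 52.3, 55.9 and 54.1 CPM in NT libraries (log2 fold change -0.37 ± 0.09 (SE), adjusted p = 0.0112). That call was lost without PLX1X replicate 1 or 2 (adjusted p = 0.069 and 0.0656), the libraries with the lower values. In the separate comparison of 9 libraries 1 of 17 was higher and 1 lower in the macrophage-poor group. No source used here gives the hour at which tissue was taken, and its part in these values was not tested.

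The E-box CACGTG, searched in the same promoter windows (it reads alike on both strands), was found for 5 of 15 clock genes with a window (33.3%) and for 1245 of 13408 tested genes (9.29%). The share was 12.3% among genes called higher and 8.88% among those called lower. High shares were not particular to clock genes, with 5 of 17 lysosomal (29.4%) and 2 of 8 microglia-restricted genes (25%), though many other lists had no match. The D-box TTATGNAA, on either strand, was found for 2 clock genes and 2.25% of tested genes. The 250 bases before the start are shown for Ciart, the gene with the largest rise, at chr3:95882229-95882478 (-), and for the clock output gene Tef, at chr15:81802423-81802672 (+), with each E-box in capitals.
Ciart: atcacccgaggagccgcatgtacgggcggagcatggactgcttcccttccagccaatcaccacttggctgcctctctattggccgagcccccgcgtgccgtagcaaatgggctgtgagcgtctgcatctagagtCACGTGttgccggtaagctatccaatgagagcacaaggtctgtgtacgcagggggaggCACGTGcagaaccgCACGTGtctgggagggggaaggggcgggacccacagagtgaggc
Tef: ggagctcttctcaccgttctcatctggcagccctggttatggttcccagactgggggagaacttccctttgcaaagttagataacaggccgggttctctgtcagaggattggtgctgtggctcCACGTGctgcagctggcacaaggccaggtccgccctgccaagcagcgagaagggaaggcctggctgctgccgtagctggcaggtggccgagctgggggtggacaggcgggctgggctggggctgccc
Ciart carries 3 E-boxes, the nearest beginning 44 and the farthest 116 bases before the start, and Tef carries 1, at 127 bases. Tef was at 521, 512 and 547 CPM in PLX1X libraries, against 401, 451 and 436 CPM in NT libraries (log2 fold change 0.29 ± 0.06 (SE), adjusted p = 0.00103).

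Several genes that glucocorticoids induce were among the rises, 5 of 12 listed, with none lower (2 higher without PLX1X replicate 1). Sgk1, a serum- and glucocorticoid-regulated kinase gene, was at 124, 108 and 154 CPM in PLX1X libraries, against 69.3, 76.4 and 68.7 CPM in NT libraries (log2 fold change 0.85 ± 0.13 (SE), adjusted p = 0.000751). Plin4, a lipid droplet protein gene, was at 5.67, 4.61 and 3.64 CPM in PLX1X libraries, against 0.715, 1.96 and 1.95 CPM in NT libraries (log2 fold change 1.53 ± 0.40 (SE), adjusted p = 0.0162, but 0.0582 without PLX1X replicate 1). Tsc22d3, the GILZ gene, rose 1.39-fold (adjusted p = 2.07e-05). The groups were separate for Sgk1 and Plin4, and neither gene was called in the separate comparison of 9 libraries (adjusted p = 0.991 and 0.422). Fkbp5, a chaperone gene of the same response, was at 58.2, 62.7 and 54.8 CPM in PLX1X libraries, against 40.8, 47.8 and 49.6 CPM in NT libraries and was not called (adjusted p = 0.0622, but 0.0331 with the 6 libraries alone and 0.0188 by DESeq2). All 12 immediate early genes of neuronal activity had positive log2 fold changes, but none was called by edgeR (2 at an unadjusted p under 0.05, 1 by DESeq2, 4 without NT replicate 3).

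Among the 15 largest rises with a mean log2 CPM of at least 1 and no overlap were those of Mthfd1l, Xdh, Hif3a, Pla2g4e, Qrfpr and Mc4r. Mthfd1l, a mitochondrial folate enzyme gene, was at 22.7, 23.5 and 26.3 CPM in PLX1X libraries, against 14.3, 11.1 and 11.3 CPM in NT libraries (log2 fold change 0.99 ± 0.13 (SE), adjusted p = 2.94e-05). Xdh, the xanthine dehydrogenase gene, was at 12.3, 16.4 and 14.0 CPM in PLX1X libraries, against 5.77, 7.53 and 6.34 CPM in NT libraries (log2 fold change 1.11 ± 0.22 (SE), adjusted p = 0.00258). Hif3a, a hypoxia-inducible factor subunit gene, was at 4.39, 2.95 and 3.99 CPM in PLX1X libraries, against 1.43, 1.56 and 2.01 CPM in NT libraries (log2 fold change 1.16 ± 0.28 (SE), adjusted p = 0.00738). Every PLX1X library was above every NT library for each of them. Pla2g4e, a phospholipase A2 gene, and Qrfpr, a neuropeptide receptor gene, rose 1.92-fold and 1.96-fold (adjusted p = 0.000667 and 0.0165). Mc4r, the melanocortin 4 receptor gene, was at 4.09, 3.75 and 3.50 CPM in PLX1X libraries, against 1.81, 1.36 and 2.19 CPM in NT libraries (log2 fold change 1.07 ± 0.23 (SE), adjusted p = 0.00296). Disp2 and the amino acid transporter gene Slc6a15 were among the 12 rises with the smallest p-values. Disp2 was at 385, 364 and 352 CPM in PLX1X libraries, against 235, 239 and 239 CPM in NT libraries (log2 fold change 0.63 ± 0.05 (SE), adjusted p = 2.64e-07). Slc6a15 was at 80.7, 81.3 and 81.9 CPM in PLX1X libraries, against 51.5, 54.7 and 49.2 CPM in NT libraries (log2 fold change 0.65 ± 0.06 (SE), adjusted p = 4.84e-07).

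Cholesterol synthesis genes rose, 10 of 20 with none lower, at a median log2 fold change of 0.20, and 8 with the 6 libraries alone. Fdft1, the gene of the enzyme that makes squalene, was at 130.1, 140.3 and 143 CPM in PLX1X libraries, against 95.0, 99.1 and 99.5 CPM in NT libraries (log2 fold change 0.49 ± 0.06 (SE), adjusted p = 8.56e-06), above every NT library in each PLX1X library. Sqle, the gene of the enzyme that follows it, rose 1.38-fold (adjusted p = 0.00014). The sterol element TCACNCCAC, searched on both strands, was found in 1 of 15 promoter windows of these genes, that of Hmgcs1, and in 1.13% of those of all tested genes. Of iron genes, Tfrc, the transferrin receptor gene, rose (86.6, 104 and 86.6 CPM in PLX1X, 63.1, 64.4 and 60.4 CPM in NT, adjusted p = 0.000352). Slc40a1, the iron exporter gene, fell (10.8, 12.7 and 11.1 CPM in PLX1X, 14.8, 16.3 and 16.8 CPM in NT, adjusted p = 0.00474).

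**Figure D5:**
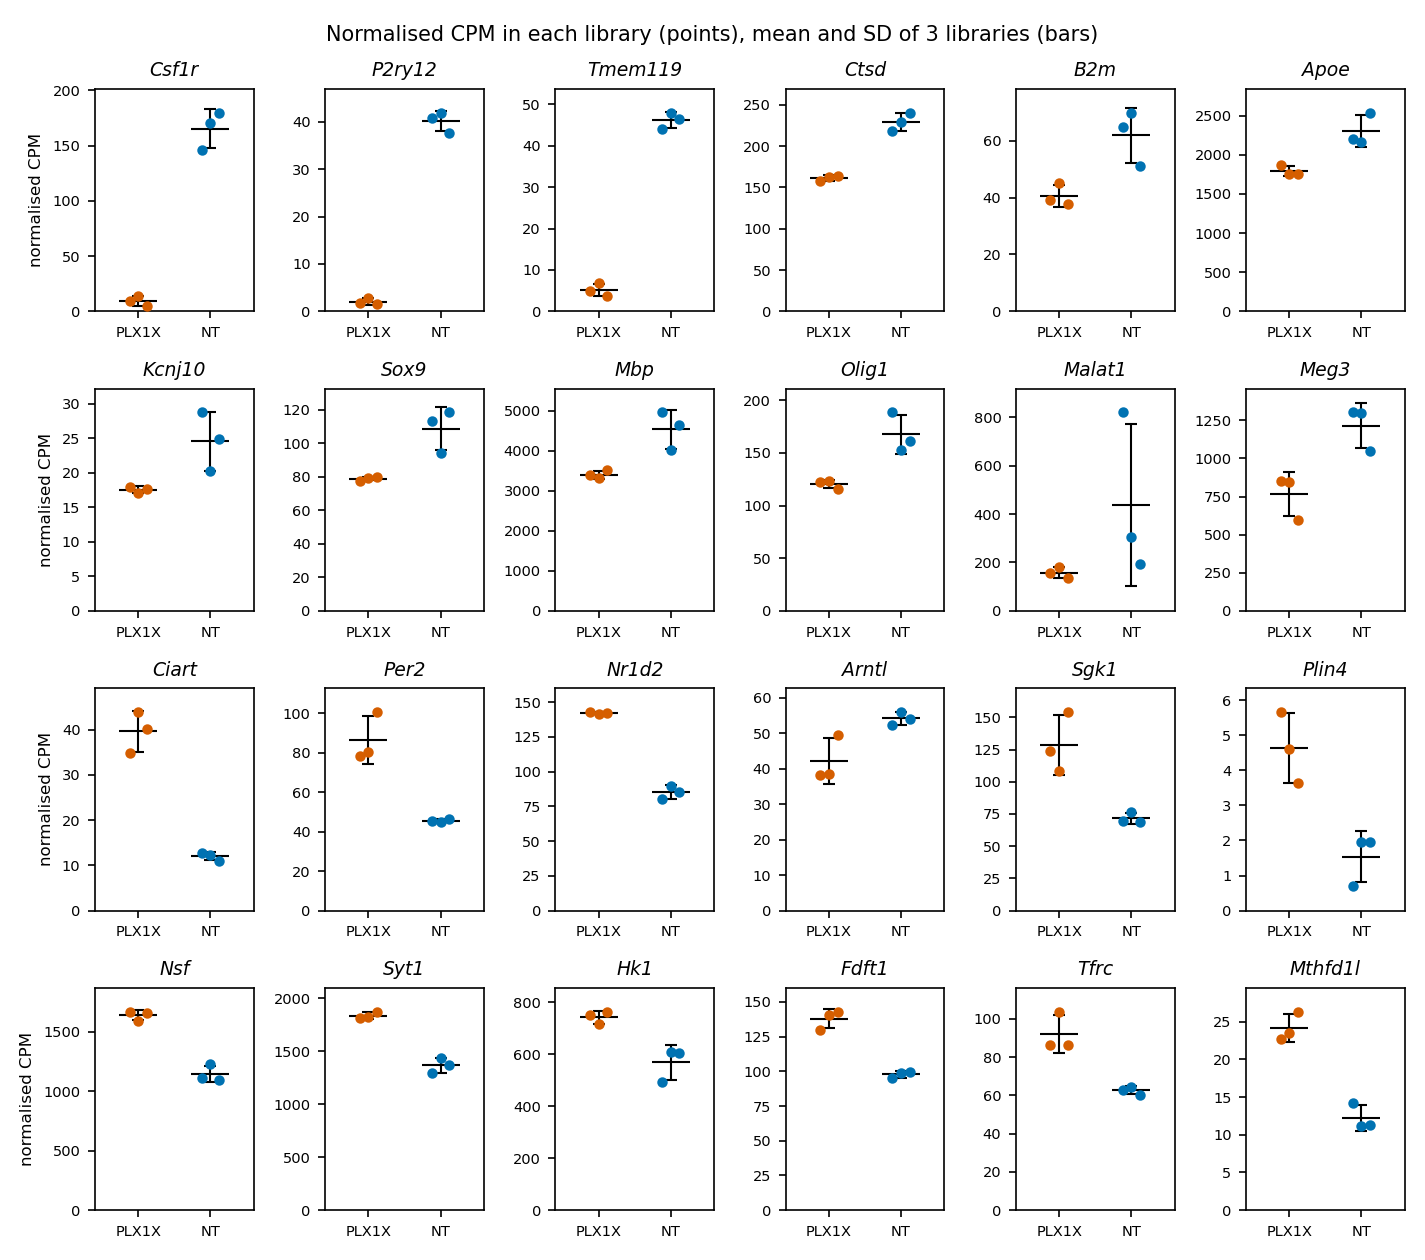
Normalised CPM of 24 genes in each library (vertical axis, linear and starting at 0), PLX1X in orange left of NT in blue, with the mean and SD of 3 libraries as black bars. The upper rows hold genes lower in PLX1X, from macrophage genes such as Csf1r to Meg3, and the lower rows hold clock, glucocorticoid-responsive, synaptic and metabolic genes, of which Arntl alone is lower. For Malat1 the NT points spread widely, with replicate 1 on top.

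Other cell types gave few calls. Of 12 meningeal fibroblast, 9 choroid plexus, 8 ependymal and 5 red blood cell genes none was called by edgeR, with 1, 0, 1 and 2 lower at an unadjusted p under 0.05, and DESeq2 called 1 ependymal gene lower and no other. Without NT replicate 2, 6 fibroblast genes were called higher, and without NT replicate 1, 2 were called lower. Without PLX1X replicate 1, 4 red blood cell genes were called lower. Their replicates spread widely: the choroid plexus genes summed to 33.3, 28.7 and 19.5 CPM in PLX1X and 48.7, 27.5 and 41.9 CPM in NT. Myh11, a contractile gene of vascular smooth muscle, was called higher (6.52, 7.80 and 7.90 CPM in PLX1X, 2.76, 5.94 and 3.78 CPM in NT, adjusted p = 0.00648), but not with the 6 libraries alone (adjusted p = 0.0593). Of 17 proliferation genes 2 were higher (4 without NT replicate 3 and 1 without PLX1X replicate 2). Pcna, the replication clamp gene, was at 31.2, 35.2 and 35.9 CPM in PLX1X libraries, against 25.0, 26.5 and 28.5 CPM in NT libraries (log2 fold change 0.35 ± 0.08 (SE), adjusted p = 0.00539). Of 32 ribosomal protein genes 3 were lower and 1 higher, beside 18.1% called over all genes, and none was lower without NT replicate 2 or PLX1X replicate 1 or 3.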

How the data were processed

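Bulk RNA-seq was made from forebrain with a SMARTer Ultra Low kit, which does not mark strand, per the labels' protocols. The submitters' processing notes name mm10, DRAGEN and DESeq2, and no version is given in the sources used here. The authors deposited 1 table of whole-number counts per gene for 15 libraries and 1 of CPM values, equal to the count over the library total (to within 4.99e-07). Between 70.6 and 74.7% of the deposited counts of 1 to 4 are even, so that most low counts move in steps of 2 and counting error is larger than the counts show. The count table repeats 287 rows with identical counts, and each identifier was kept once. Classes and coordinates are from GENCODE M21 (mm10).

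The test on the deposited counts was that of edgeR 4.0.16 (R 4.3.3; quasi-likelihood F-test, robust, TMM scaling, filterByExpr by group, 1 mean per group, all 15 libraries, two-sided), with Benjamini-Hochberg adjustment over 21780 genes and a threshold of 0.05. The SE is the log2 fold change over the square root of F. CPM values in the text were recomputed from the counts with TMM factors. Totals ran from 19249641 to 54801136 counts, and the replicates of every group differed by more than sampling noise. The separate comparison used the same test on 9 libraries. Lists were described by counts and medians, with no set test. Members, lists and alternatives were chosen with earlier results of these data known, the length and GC offset among them.

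Genes were named by these rules: the 15 largest called changes in each direction with a mean log2 CPM of at least 1 and no overlap of libraries, the same among genes with an unadjusted p of at least 0.05 in the separate comparison, the 12 largest called changes in mean CPM and the 12 smallest p in each direction, any listed gene, and 9 markers, of which the text describes a part. Motif windows are RefSeq's (GRCm38.p6). Alternatives were DESeq2 1.42.0, RLE scaling, the offset (R's loess), no filter and a stricter filter (3 libraries with a CPM of 1 or more). The others were the 6 libraries alone, a replicate block, repeated rows kept and each library left out. The test was also run on simulated counts with known changes. Among genes with a mean log2 CPM of at least 1 it called 27 of 28 with a log2 change of -2. It called 20 of 24 at -1, 19 of 22 at 1, 11 of 22 at -0.5, 18 of 27 at 0.5 and 5 of 13864 unchanged genes. Over all tested genes it called 20 of 38 at -1. The simulated counts held no outlying library and no excess of even counts. Some genes are not reported here.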

Additional observations from a re-analysis of the deposited data

How the results depend on the processing

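With the 6 libraries alone, 2143 genes were called, 1192 higher and 951 lower, 15 of them higher by at least 2-fold, and 1796 of the calls over 15 libraries were lost. Deviations from the group means of same-numbered PLX1X and NT libraries had correlations over genes of -0.10, -0.01 and -0.12. Those of differently numbered pairs ran from -0.24 to 0.31. Deviations from a mean of 3 libraries are tied to each other, so these values cannot decide whether libraries were paired. A replicate block in the fit of 15 libraries gave 3833 calls, 2130 higher and 1703 lower, and a replicate block with the 6 libraries alone 1120, 542 higher and 578 lower, of which 14 and 339 were by at least 2-fold. Rises of at least 2-fold numbered 41 with no filter and 17 with the stricter one, and falls of that size 397 with the stricter one. Leaving out 1 library at a time gave 2696 to 3932 calls, 1587 to 2275 higher and 1109 to 1696 lower, with 20 to 46 rises and 429 to 687 falls of at least 2-fold. In the separate comparison it gave 1954 to 3885 calls, 829 to 2055 higher and 1125 to 1830 lower. At an unadjusted p under 0.05 that comparison held 6097 genes, 3134 higher and 2963 lower. The share of PLX1X falls also lower there was 27.73% with the length and GC offset, 29.24% with no filter, 37.67% with the 6 libraries and 50.09% with those and the block, 27.66% with the second comparison fitted on 15 libraries and 36.23% with its stricter filter. The share of rises also higher there was 25.47% with the offset, 34.79% with the 6 libraries, 39.63% with those and the block, and 24.41% with the second comparison on 15 libraries. Over single libraries left out these shares ran over 23.76 to 40.48% and 16.73 to 35.02%. For genes described in the report, 1757 of the values under alternatives kept direction and side of the threshold, 60 lost the threshold and 8 gained it; no gene turned its direction. With no filter Gfap, Gapdh and Prkcd were called, and the cause was not tested. NT replicate 1 had the fewest counts, so values of low genes are least exact there.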
